A study of Mus musculus with 9 samples.

Results

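C1qtnf1, C1qtnf2, C1qtnf3, C1qtnf7, C1qtnf9, Adipoq, Retn, Retnla, Cfd and Lep encode C1q/TNF-related proteins, adiponectin, resistin and a resistin-like protein, complement factor D and leptin. These 10 genes of secreted factors were taken by name from the 24537 gene names measured in sham heart and sham quadriceps. In TAC quadriceps, counts were given for a selected set of 587 genes, of secreted proteins and of others such as Ckm and Hba-a1. Of these 587, 7 were among the 10, and C1qtnf2, C1qtnf7 and Lep were not analysed there. RNA sequencing had been done on 9 libraries: 3 of heart and 3 of quadriceps from sham-operated control mice, and 3 of quadriceps from mice after transverse aortic constriction (TAC). TAC narrows the aorta around a 27 gauge needle, so that the left ventricle works against a raised pressure, and the sample titles of this group add the German word for cachexia, a wasting of body mass. All tissue was taken 12 weeks after surgery, and the labels give an age of 8 weeks at surgery. The mice were wild-type males of the strain C57Bl/6JCrl by the study's methods, and sham mice had the operation without the constriction. The study calls its RNA sequencing libraries biological replicates, but the labels do not tie each library to an animal, and p-values measure the spread between these libraries.

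Adiponectin and the C1q/TNF-related proteins share a collagen-like stalk and a globular C1q domain, and circulate as multimers. Adiponectin, made by fat cells, acts through the receptors Adipor1 and Adipor2 and the adaptor Appl1 on AMP-activated kinase, and binds T-cadherin (Cdh13) on endothelium and muscle. Leptin, resistin and factor D (adipsin, the protease that cleaves factor B in the alternative complement pathway) are also secreted by mouse fat cells, while Retnla is made by fat tissue and by alternatively activated macrophages. Skeletal muscle fibres are not the known main source of adiponectin, leptin or resistin, and a piece of muscle carries some fat, connective tissue and tendon.

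On GRCm38 the genes lay on 8 chromosomes. The fat hormone genes were Adipoq at chr16:23146536-23158028 with 3 exons, Lep at chr6:29060220-29073877 with 3 exons, Retn at chr8:3655770-3660110 with 5 exons, and Cfd at chr10:79890853-79892655 with 5 exons. Retnla lay at chr16:48842551-48844461 with 4 exons. The C1q/TNF genes were C1qtnf1 at chr11:118428203-118449963, C1qtnf2 at chr11:43474276-43491525, C1qtnf3 at chr15:10952332-10980150, C1qtnf7 at chr5:43515538-43618803 and C1qtnf9 at chr14:60768134-60780869. All 10 genes were on the plus strand in the GENCODE vM21 annotation. Antisense genes overlapped C1qtnf1, C1qtnf7 and C1qtnf9, and since the strand setting of the counting is not given in the sources used here, reads of these pairs cannot be told apart.

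The bases before the start of a gene hold its core promoter, and they are shown for genes whose levels moved together between libraries (Adipoq and Lep) and for the genes that fell in TAC quadriceps (Retnla and C1qtnf3). The sequences are the 250 bases before the RefSeq start on GRCm38.p6, of which RefSeq windows were at hand for 9 of the 10 genes. Capitals mark matches on either strand to 3 motifs. The first is the TATA box, spelled TATAAA. Another is the CCAAT box, searched by those letters. The last is TTGCNNAA, the letters of a site for C/EBP factors, which drive fat cell genes. No match overlaps another in the sequences shown.
Adipoq, chr16:23146286-23146535, plus strand: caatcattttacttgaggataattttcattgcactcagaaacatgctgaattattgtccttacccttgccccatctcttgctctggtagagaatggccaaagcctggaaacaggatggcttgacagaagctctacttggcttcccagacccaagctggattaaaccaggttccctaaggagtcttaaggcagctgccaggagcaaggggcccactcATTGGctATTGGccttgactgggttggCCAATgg
Lep, chr6:29059971-29060220, plus strand: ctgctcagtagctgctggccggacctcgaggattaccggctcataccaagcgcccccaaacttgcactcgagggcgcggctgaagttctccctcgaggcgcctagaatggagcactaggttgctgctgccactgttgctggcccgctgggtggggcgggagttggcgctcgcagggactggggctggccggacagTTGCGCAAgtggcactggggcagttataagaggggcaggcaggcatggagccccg
Retnla, chr16:48842359-48842608, plus strand: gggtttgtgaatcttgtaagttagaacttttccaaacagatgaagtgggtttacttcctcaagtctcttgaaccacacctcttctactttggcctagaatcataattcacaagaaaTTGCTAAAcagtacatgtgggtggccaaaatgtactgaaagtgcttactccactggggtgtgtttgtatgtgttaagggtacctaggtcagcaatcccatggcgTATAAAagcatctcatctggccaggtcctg
C1qtnf3, chr15:10952082-10952331, plus strand: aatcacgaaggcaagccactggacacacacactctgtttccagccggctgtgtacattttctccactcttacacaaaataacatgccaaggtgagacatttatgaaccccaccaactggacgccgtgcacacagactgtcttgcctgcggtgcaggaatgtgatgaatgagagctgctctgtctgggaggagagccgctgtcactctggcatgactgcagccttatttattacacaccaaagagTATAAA
Adipoq had 3 CCAAT matches, 34, 27 and 7 bases before the start, and CCAAT was found in 33.8% of 32851 such windows and in 1 of the 9. Lep had TTGCGCAA 55 bases before the start, and Retnla had TTGCTAAA at 134 bases. TTGCNNAA was found in 9.56% of all windows and in 2 of the 9. TATAAA stood 30 bases before the start of Retnla and 6 before that of C1qtnf3, in 12.4% of all windows and in 2 of the 9. None of these letters were in the windows of Retn and Cfd.

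Library totals in the table of sham tissues ran from 23383452 counts in sham quadriceps library 3 to 38382751 in sham heart library 2. TAC quadriceps libraries 1 and 2 had totals of 48614494 and 48999600, above every sham quadriceps library, so that depth and surgery cannot be told apart. The tissue labels held: Myh6, the cardiac myosin heavy chain, stood at 3837 to 4170 RPKM (reads per kilobase of transcript, scaled to the library total) in heart and at 0.361 to 0.418 in quadriceps. Actn3, the actinin of fast muscle fibres, stood at 938 to 1381 RPKM in quadriceps and at 0.0106 to 0.0364 in heart.

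Ranked by mean RPKM, a scale per transcript length on which genes can be set side by side, sham quadriceps held Cfd first (21.1 ± 19.2 RPKM, SD, n = 3), then C1qtnf9 (16.8 ± 2.53), Retnla (15.2 ± 11.7), Adipoq (14.4 ± 13.6) and Retn (11.5 ± 8.98). The ranges of these 5 genes overlapped from each to the next. C1qtnf1 followed at 2.04 ± 0.581 RPKM, below the range of Retn. The place of Retn depended on its transcript, since the other one listed stood at 2.87 ± 2.21 RPKM in quadriceps, where its range took in that of C1qtnf1, and at 0.0331 ± 0.0289 in heart, below the mean of C1qtnf3. Lep (0.658 ± 0.792), C1qtnf2 (0.642 ± 0.34), C1qtnf3 (0.499 ± 0.0913) and C1qtnf7 (0.368 ± 0.141) closed the order, and their ranges overlapped from each to the next. In sham heart the order was another: C1qtnf9 led at 21.1 ± 1.64 RPKM, above the range of C1qtnf1 (4.51 ± 0.604). Retnla (3.17 ± 1.05), C1qtnf7 (1.72 ± 0.239) and C1qtnf2 (1.51 ± 0.144) came next. Cfd, Adipoq and Retn stood at 0.424 ± 0.360, 0.34 ± 0.207 and 0.142 ± 0.0736 RPKM in heart, C1qtnf3 at 0.0517 ± 0.0171 and Lep at 0.0244 ± 0.0214.

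**Figure D1:**
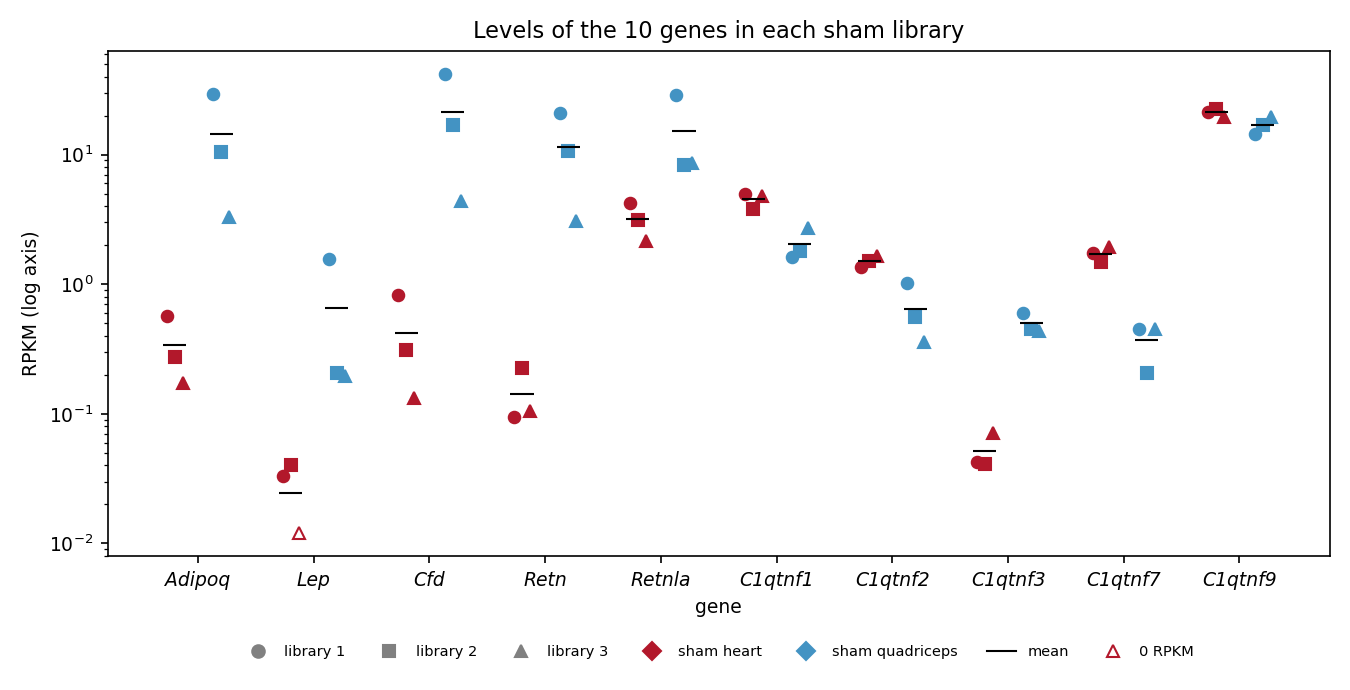
RPKM on a log axis for each of the 10 genes in the 3 sham heart and 3 sham quadriceps libraries, with black bars at the mean and an open symbol for a value of 0. Adipoq, Cfd, Retn, Lep, Retnla and C1qtnf3 are higher in every quadriceps library than in any heart library, and C1qtnf9 lies between 14.3 and 22.7 RPKM in all 6 libraries.

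The comparison of sham quadriceps with sham heart asked which secreted factors are enriched in muscle. Of the 10 genes, 7 were called higher in quadriceps, 1 was called lower and 2 were not called, while 6 were higher and 4 lower with library totals (edgeR quasi-likelihood test, p-values adjusted by Benjamini-Hochberg across 24280 transcripts, called at an adjusted p under 0.05). With this test 66.6% of all transcripts tested were called, 32.2% as higher and 34.4% as lower (7828 and 8354 transcripts). When counts were divided by library totals instead, 3241 were called higher and 15203 lower, and the median log2 fold change of all transcripts moved from -0.06 to -0.80. The median log2 fold change was 3.48 over the 10 genes. The groups did not overlap for 7 of the 10 genes, against 72.6% of all transcripts.

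Adipoq counts were 26, 13 and 7 in heart against 1183, 425 and 94 in quadriceps. The groups did not overlap, and quadriceps library 1 stood far above libraries 2 and 3. The log2 fold change was 6.09 (SE 0.80, adjusted p = 0.000115), a 68.3-fold higher level, and was 5.20 without quadriceps library 1 and 6.68 without heart library 1. Cfd counts were 28, 11 and 4 in heart against 1256, 511 and 94 in quadriceps, again with no overlap, and a log2 fold change of 6.32 (SE 0.84, adjusted p = 0.000128). Without quadriceps library 1 it was 5.51, and without heart library 1 it was 7.22. Retn counts were 2, 5 and 2 in heart against 393, 201 and 41 in quadriceps. With so few heart counts its log2 fold change of 6.99 (SE 0.79, adjusted p = 4.12e-05) rests on 9 heart counts in all, and it was 6.39 without quadriceps library 1. Lep counts were 4, 5 and 0 in heart against 167, 22 and 15 in quadriceps, a log2 fold change of 5.35 (SE 1.01, adjusted p = 0.00119). Quadriceps library 1 held most of the Lep counts, and without it the log2 fold change was 3.76 (adjusted p = 0.000639). Retnla counts were 93, 71 and 42 in heart against 555, 162 and 119 in quadriceps, and rose by 2.97 on the log2 scale (SE 0.46, adjusted p = 0.000335), or by 2.24 without quadriceps library 1.

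Among the C1q/TNF genes, C1qtnf3, a factor of cartilage, connective tissue and fat also called cartonectin, had 4, 4 and 6 heart counts against 50, 38 and 26 quadriceps counts. It was 15.9-fold higher in quadriceps (log2 fold change 3.99, SE 0.31, adjusted p = 3.73e-06), and here the quadriceps libraries lay close together, at 1.84, 1.59 and 1.47 CPM (counts scaled to a common library size) after TMM scaling. C1qtnf7 went the other way, with 105, 92 and 105 heart counts against 24, 11 and 17, a log2 fold change of -1.50 (SE 0.27, adjusted p = 0.000873). C1qtnf9, the relative closest to adiponectin in its C1q domain, had 1499, 1650 and 1218 heart counts against 887, 1050 and 860. Its log2 fold change of 0.43 (SE 0.15, adjusted p = 0.0267) was -0.33 with library totals, so its direction depended on the scaling. With TMM the call was lost in 4 of the 6 fits that left out 1 library. C1qtnf1 counts were 787, 630 and 678 in heart against 228, 255 and 272 in quadriceps, with a log2 fold change of -0.39 (SE 0.20, adjusted p = 0.116) that was -1.15 with library totals (adjusted p = 0.000902). C1qtnf2 counts were 61, 70 and 66 in heart against 40, 22 and 10 in quadriceps, with a log2 fold change of -0.46 (SE 0.30, adjusted p = 0.199) that was -1.19 with library totals (adjusted p = 0.0104). Neither gene was called with TMM scaling when all libraries were used. C1qtnf1 was called without sham quadriceps library 3 (-0.63, adjusted p = 0.0154), and C1qtnf2 without sham quadriceps library 1 (-0.85, adjusted p = 0.0258). Where a gene had several transcripts in the table (C1qtnf1, C1qtnf3, C1qtnf7, Cfd and Retn), the log2 fold changes of its transcripts differed by at most 0.209.

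The fat hormones of the sham quadriceps moved together. Adipoq stood at 29.5, 10.5 and 3.28 RPKM in sham quadriceps libraries 1, 2 and 3, Cfd at 42.0, 16.9 and 4.39, Retn at 20.9, 10.6 and 3.05, and Lep at 1.57, 0.205 and 0.197. Library 1 was the highest for each of these 4 genes and library 3 the lowest. Retnla was also highest in library 1, at 28.7 RPKM against 8.30 and 8.60. C1qtnf2 (1.02, 0.553 and 0.355) and C1qtnf3 (0.604, 0.454 and 0.438) had the same order as the fat hormones, so that 6 of the 10 genes did, and the spread of C1qtnf3 was the smaller. C1qtnf1 (1.62, 1.80 and 2.71) and C1qtnf9 (14.3, 16.8 and 19.4) were lowest in library 1 and highest in library 3. C1qtnf7 (0.452, 0.205 and 0.447) was lowest in library 2.

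Fat cell genes outside the 10 ranked the libraries in the same way. Plin1, the coat protein of fat droplets, stood at 1.91, 0.684 and 0.202 RPKM, and Cidec, which fuses the droplets, at 8.26, 2.65 and 1.46. Adrb3, the beta-adrenergic receptor of fat cells, stood at 0.791, 0.359 and 0.0307. Of 20 white fat cell genes outside the 10, 16 had library 1 above 2 and 2 above 3, against 21.1% of all transcripts tested. These 16 include all 7 defining fat cell genes (Plin1, Cidec, Lipe, Pparg, Adig, Lgals12 and Adrb3). The summed level of the 7 was 23.4, 10.1 and 6.14 RPKM. Ucp1, the uncoupling protein of brown fat, had 65 counts in library 1, 1 in library 2 and 0 in library 3. In bulk tissue, fewer cells of a type and less RNA per cell cannot be told apart, and the part of fat cell content in the levels of Adipoq, Cfd, Retn, Lep and Retnla was not tested.

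**Figure D2:**
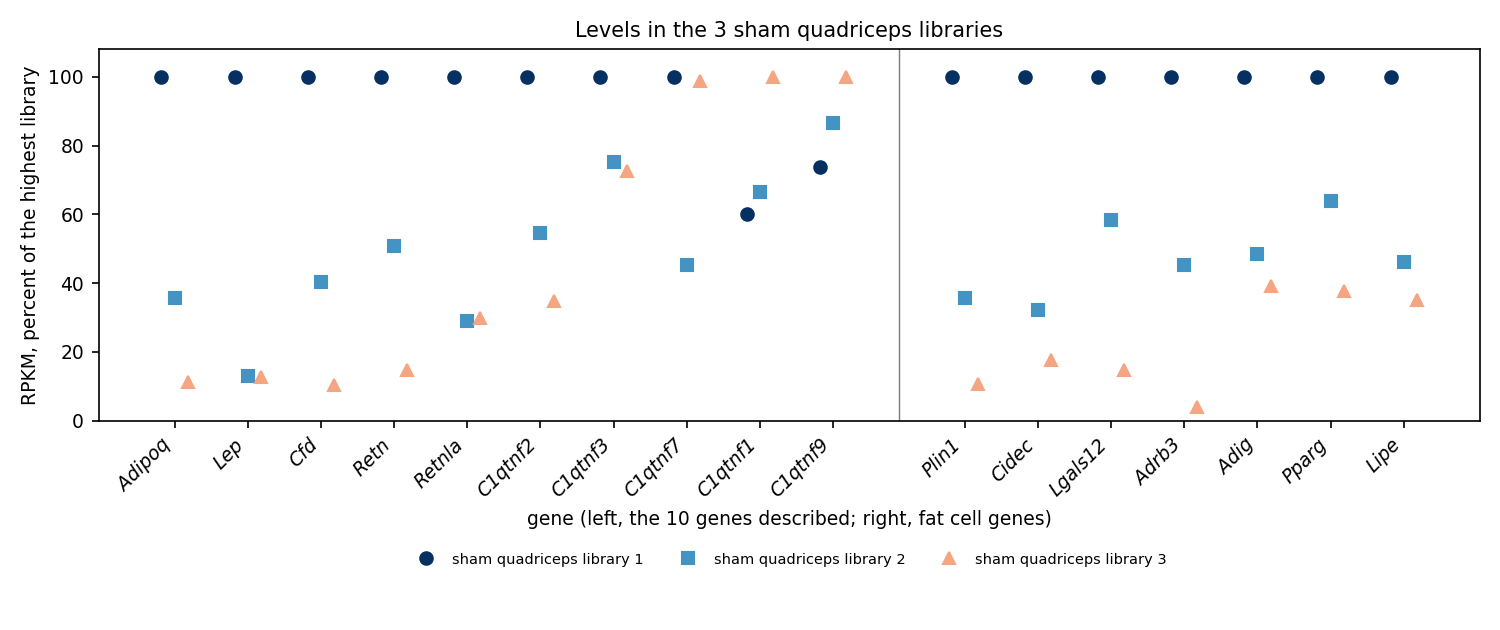
RPKM in each sham quadriceps library as a percent of the library with the highest value, for the 10 genes at the left and 7 fat cell genes at the right. Library 1 is the highest for Adipoq, Lep, Cfd, Retn, Retnla, C1qtnf2, C1qtnf3, C1qtnf7 and all 7 fat cell genes, and library 3 is the highest for C1qtnf1 and C1qtnf9.

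The same fat cell genes separated the tissues only in part. Of 24 white fat cell genes, which include Adipoq, Lep, Cfd and Retn, 14 were higher in quadriceps than in heart, 5 were lower and 5 were not called, with a median log2 fold change of 2.13 (12 higher and 7 lower with library totals, where Plin4 changed direction). Of the 7 defining genes 5 were higher and none lower, with a median of 3.80, and the largest changes were in Adrb3 (5.52, adjusted p = 0.00114), Cidec (5.47, adjusted p = 0.00012) and Lgals12 (5.04, adjusted p = 0.00016). With library totals 5 were higher and 2 lower. Adrb3 was at or near 0 in the heart libraries, at 0.00968, 0.0280 and 0 RPKM, and Lgals12 at 0.0393, 0.0190 and 0.0220. Lipe, the hormone-sensitive lipase that heart muscle also uses, was the most abundant defining gene by mean RPKM over both tissues. It stood at 4.56, 2.11 and 1.60 RPKM in quadriceps and 4.68, 4.80 and 5.36 in heart. Adig was above it in every quadriceps library, at 4.885, 2.37 and 1.91 RPKM, and Cidec in quadriceps libraries 1 and 2, at 8.26 and 2.65. Fabp4, the fatty acid binding protein of fat cells and capillary endothelium and the most abundant gene of the white fat list, stood at 215 to 520 RPKM in quadriceps and 472 to 622 in heart. The summed level of the 24 genes was 1649, 581 and 543 RPKM in the quadriceps libraries and 627, 734 and 770 in the heart libraries. Car3, a carbonic anhydrase of fat and slow muscle fibres, changed most within the list, by 8.89 (adjusted p = 6.82e-06), followed by Retn and Cfd.

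Genes of other cell types also differed between the tissues. Of 9 tendon genes 8 were higher in quadriceps and none lower (7 and 1 with library totals, where Comp changed direction), led by Kera (log2 fold change 8.86, adjusted p = 1.37e-07), Tnmd (5.92, adjusted p = 3.15e-07) and the most abundant, Thbs4 (3.88, adjusted p = 1.44e-08). Their summed level was 60.1, 49.1 and 51.5 RPKM in quadriceps and 10.5, 10.7 and 7.14 in heart. Of 16 fibroblast genes 12 were lower in quadriceps and none higher, and their summed level was 327, 212 and 231 RPKM there against 723, 720 and 645 in heart. Of 12 macrophage genes 10 were lower in quadriceps and none higher, and Lyz2, the most abundant, had 21.0, 13.8 and 20.9 RPKM against 50.3, 55.8 and 54.4. C1qtnf3 and Retnla were higher in quadriceps, and the part of tendon or macrophage content in their levels was not tested.

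TAC quadriceps was compared with sham quadriceps to find secreted factors that change in muscle during heart failure with wasting. Of the 7 genes listed, 2 were called lower, C1qtnf3 and Retnla, none was called higher and 5 were not called. Among the 586 genes tested, 29.7% were called, 11.9% as lower and 17.7% as higher (70 and 104 genes). With library totals, taken for 5 of the 6 libraries since the RPKM values of TAC library 4 were not used, the split was 20 higher and 180 lower, and the median log2 fold change of all genes moved from 0.03 to -0.63. Unless another setting is named, changes below are with TMM and so relative to the bulk of the listed genes, whose median was 0.03. With TMM the median over the 7 genes was -0.18. The groups did not overlap for 2 of the 7, against 47.3% of all genes. The sham quadriceps libraries are those of the comparison with heart, so the results of the comparisons are not independent.

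C1qtnf3 counts were 50, 38 and 26 in sham against 3, 4 and 2 in TAC. Normalized counts were 40.6, 38.4 and 35.7 in sham and 2.9, 3.9 and 2.0 in TAC, so that every TAC library lay far below every sham library. The level fell 12.5-fold (log2 fold change -3.65, SE 0.43, adjusted p = 0.00162), and an exact permutation test (two-sided, 3 libraries a group) gave p = 0.1, the smallest it can give. With library totals the log2 fold change was -4.08 (adjusted p = 0.00339), and with TMM it lay between -3.90 and -3.54 when each library was left out in turn. Retnla had normalized counts of 451, 164 and 164 in sham and 46.5, 51.9 and 95.1 in TAC. The groups did not overlap, but sham library 1 stood well above the other two. The level fell 4.03-fold (log2 fold change -2.01, SE 0.48, adjusted p = 0.0189; exact permutation p = 0.1), and with library totals the log2 fold change was -3.12 (adjusted p = 0.0121). Without sham library 1 the log2 fold change of Retnla was -1.38 and the call was lost (adjusted p = 0.0583).

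C1qtnf1 had normalized counts of 185, 258 and 374 in sham and 189, 113 and 78.1 in TAC. The groups overlapped at sham library 1 and TAC library 1. Its log2 fold change of -1.10 (SE 0.39, adjusted p = 0.0643) was not called, while DESeq2 gave -1.09 (adjusted p = 0.0286) and library totals -1.46 (adjusted p = 0.0219). C1qtnf9 had 721, 1061 and 1182 in sham and 972, 961 and 844 in TAC, and the TAC values lay within the sham range. Its log2 fold change was -0.09 (SE 0.23, adjusted p = 0.795), and -0.65 with library totals (adjusted p = 0.0569). It was the steadiest of the 7 in TAC, with a highest over lowest library of 1.15.

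Adipoq, Retn and Cfd spread widely in both groups. Adipoq had normalized counts of 962, 429 and 129 in sham and 523, 114 and 708 in TAC, with a log2 fold change of -0.18 (SE 0.76, adjusted p = 0.877) that was -1.40 with library totals (adjusted p = 0.254). Cfd had 1021, 516 and 129 in sham and 1125, 225 and 1425 in TAC, with a log2 fold change of 0.73 (SE 0.77, adjusted p = 0.51). Retn had 319, 203 and 56.4 in sham and 288, 75.4 and 727 in TAC, with a log2 fold change of 0.90 (SE 0.79, adjusted p = 0.427). The groups overlapped for all 3 genes, and the values of Cfd and Retn had the other sign, -0.44 and -0.79, with library totals, a setting that also leaves out TAC library 4. With TMM and without that library they were 0.21 and -0.16, and Adipoq was -0.74. Adipoq had the other sign with TMM without sham library 1 (0.65) and without TAC library 2 (0.28). TAC library 2 was the lowest of its group for each of the 3 genes. Library 4 was the highest, and it was also the library with the fewest counts of blood genes, at a sum of 300.4 normalized counts over 2 genes against 891 to 1484 in the other libraries. Of the 7 defining fat cell genes Lipe alone was in the TAC table, and its lipase is used by muscle as well. It had 336, 195 and 143 normalized counts in sham and 461, 331 and 350 in TAC (log2 fold change 0.76, SE 0.34, adjusted p = 0.125).

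**Figure D3:**
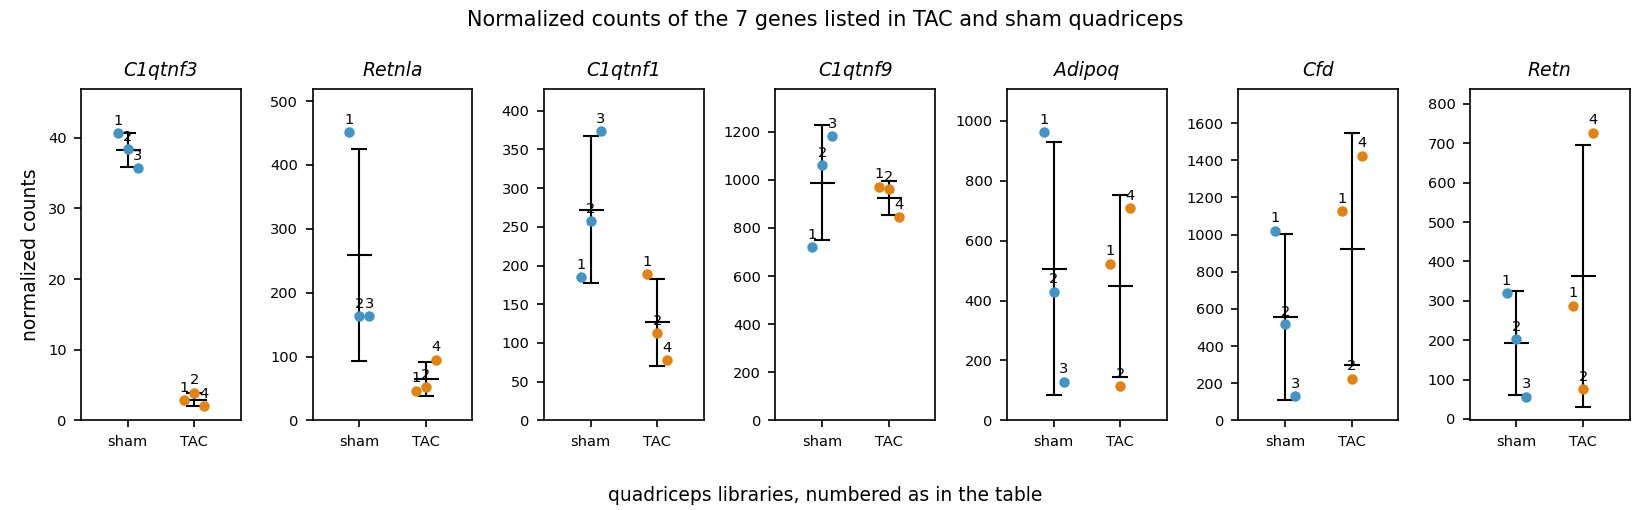
Normalized counts of the 7 genes in the 3 sham and 3 TAC quadriceps libraries, with the library number beside each point and black bars for the mean and SD; each panel has its own axis. C1qtnf3 and Retnla are lower in every TAC library than in any sham library, and the groups overlap for the other 5 genes.

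**Figure D4:**
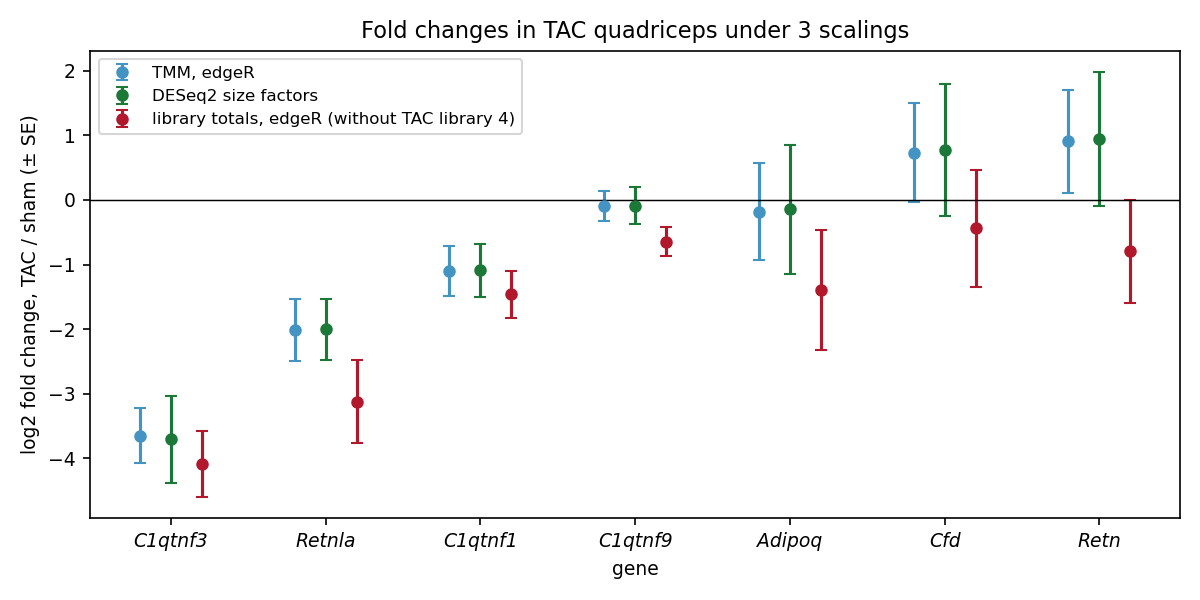
Log2 fold change with its SE for the 7 genes in TAC against sham quadriceps, with TMM scaling, DESeq2 size factors and library totals (TAC libraries 1 and 2 only). C1qtnf3, Retnla, C1qtnf1, Adipoq and C1qtnf9 are below 0 under all 3 scalings, while Cfd and Retn are above 0 with TMM and DESeq2 and below 0 with library totals.

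The count of one gene divided by that of another in the same library does not depend on scaling. This comparison was chosen after the values had been seen. Cfd had 1.06, 1.20 and 1.0 counts per count of Adipoq in sham and 2.15, 1.97 and 2.01 in TAC. The mean was 1.09 ± 0.104 (SD, n = 3) in sham and 2.04 ± 0.0957 in TAC, a ratio of 1.88, although the highest library of a group exceeded the lowest 7.44-fold in sham and 6.18-fold in TAC for Adipoq, and 7.90-fold and 6.33-fold for Cfd. Retn had 0.332, 0.473 and 0.436 counts per count of Adipoq in sham and 0.550, 0.658 and 1.03 in TAC, a ratio of 1.80. Of 585 genes, 12 (2.05%) had a count per count of Adipoq that did not overlap between the groups, a share that is no background for genes that varied with Adipoq. The 8 higher in TAC (1.37%) were Cfd, Retn, Lcn2, Il6ra, Aebp1, Vegfd, Ctsl and Flrt1, and the 4 lower were C1qtnf3, Col1a1, Col3a1 and Spp1.

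**Figure D5:**
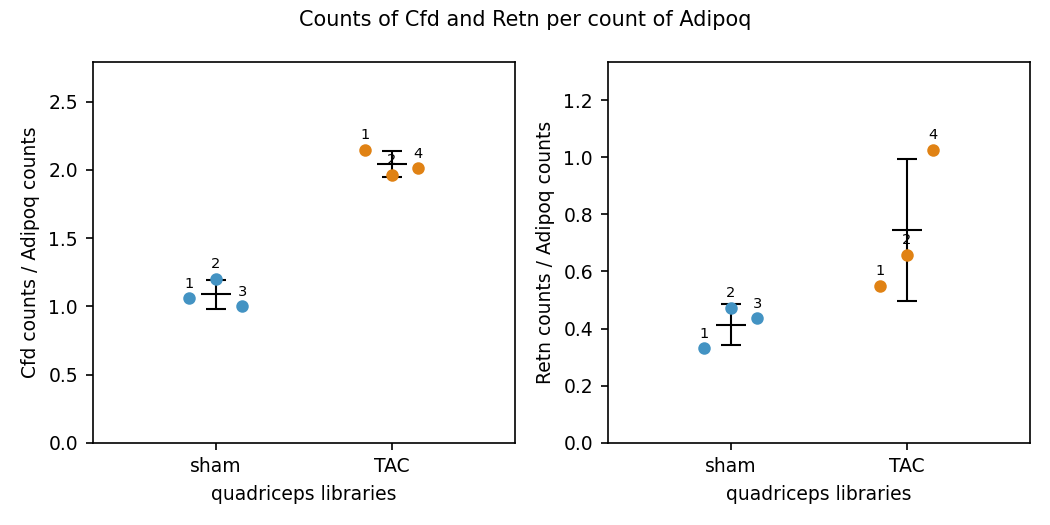
Counts of Cfd and of Retn divided by counts of Adipoq in each sham and TAC quadriceps library, numbered, with black bars for the mean and SD. Every TAC library lies above every sham library in both panels, with Cfd at 1.0 to 1.20 in sham and 1.97 to 2.15 in TAC.

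The genes whose pattern over the 6 quadriceps libraries was most like that of each of the 7 were found by Pearson's r of log2(normalized count + 0.5) among 585 other genes. These are descriptions over 6 libraries of 2 groups that share their scaling. C1qtnf3 was most like C1qc (r = 0.997), the complement subunit made by macrophages, Thbs4 (0.992), a matrix protein of tendon, and the collagen gene Col3a1 (0.990). Retnla was most like Ctsh (0.987), Dpt (0.969) and Sfrp4 (0.958). Adipoq was most like Hp (0.975), the haemoglobin scavenger haptoglobin, Ces1f (0.969) and Cfd (0.932), and Cfd in turn was like Hp (0.978), Ces1f (0.976) and Retn (0.967). Retn was most like Cfd (0.967), Trf (0.956) and Apoc1 (0.941). C1qtnf1 was most like Fbln2 (0.940), Cfl1 (0.935) and Itgam (0.923), and C1qtnf9 like Twsg1 (0.896), Fgf9 (0.860) and Fam20b (0.823).

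Marker genes of connective tissue and macrophages moved in TAC quadriceps beside C1qtnf3 and Retnla. Of 13 fibroblast genes 9 were lower and none higher, led by Col3a1 (log2 fold change -3.95, adjusted p = 0.000557), Col1a1 (-3.31, adjusted p = 0.000557) and Postn (-3.23, adjusted p = 0.00821). Dcn, the most abundant of them, was not called (0.17, adjusted p = 0.601). The summed fibroblast level was 19995, 16422 and 18060.0 normalized counts in sham and 14393, 10802 and 18650.1 in TAC, so those sums overlapped. Of 5 tendon genes 3 were lower, Col11a1 (-1.84, adjusted p = 0.00845), Thbs4 (-1.38, adjusted p = 0.00288) and Chad (-1.37, adjusted p = 0.0166), and the sum was 3231, 3603 and 3811 in sham and 1695, 1525 and 1565 in TAC. Of 4 macrophage genes 3 were lower, C1qc (-1.41, adjusted p = 0.00664), Lyz2 (-1.25, adjusted p = 0.012) and C1qa (-0.89, adjusted p = 0.0451; not called with DESeq2, adjusted p = 0.0599), and the sum was 825, 727 and 978 in sham and 367, 347 and 426 in TAC. None of these markers was at 0 in any library. The 4 macrophage genes, from a list of 12, were Lyz2 and the C1q chains C1qa, C1qb and C1qc. The rest of that list was not given for TAC quadriceps. The C1q chains are counted again below among the C1q relatives. Of 3 endothelial genes Vwf (0.84, adjusted p = 0.0346) and Pecam1 (0.63, adjusted p = 0.0341) were higher, but neither was called with library totals (0.09 and -0.02), where the third, Egfl7, was lower (-0.94, adjusted p = 0.0333; named after its values were seen). The part of these cell types in the fall of C1qtnf3 and Retnla was not tested.

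The receptors and adaptors of these hormones were listed together with the complement genes Cfb, C3 and Cfp. Only 5 of this list were among the genes given for TAC quadriceps. Adipor1, Adipor2, Appl1, Appl2 and Tlr4 were among those not given there. In TAC quadriceps none of 5 was called: the log2 fold change was -0.03 for Cdh13, the T-cadherin that binds adiponectin (adjusted p = 0.948), and 0.99 for Lepr, the leptin receptor (adjusted p = 0.0543). Cap1, a proposed resistin receptor, had 0.36 (adjusted p = 0.25), Cfb, the substrate of factor D, -0.27 (adjusted p = 0.51), and C3 0.23 (adjusted p = 0.433). With library totals 1 of the 5 was called, Cfb at -1.21 (adjusted p = 0.0353). Between the tissues, 12 genes of this list were tested, of which 4 were higher in quadriceps and 6 lower (2 and 7 with library totals). Adipor1 stood at 29.6, 41.4 and 36.5 RPKM in quadriceps and 28.0, 27.3 and 29.5 in heart (log2 fold change 1.11, SE 0.16, adjusted p = 0.000232). Adipor2 stood at 29.3, 27.6 and 23.5 and at 19.8, 21.1 and 19.4 (1.17, SE 0.11, adjusted p = 1.1e-05). In RPKM the groups did not overlap for either receptor, although Adipor1 of quadriceps library 1 was close to the highest heart library. With library totals the log2 fold changes were 0.34 and 0.41. Appl1 was higher too (0.89, adjusted p = 0.00184; 0.15 with library totals, adjusted p = 0.541), and Cfb (0.67, adjusted p = 0.0245) had the other sign with library totals (-0.06).

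Lower in quadriceps were Cdh13, at 7.99, 10.1 and 10.2 RPKM against 34.3, 32.4 and 33.8 (log2 fold change -1.06, SE 0.14, adjusted p = 0.000146), and Appl2 (-0.72, adjusted p = 0.000463). Cap1 (-1.44, adjusted p = 1.3e-06), Tlr4 (-1.66, adjusted p = 0.000325) and C3 (-0.53, adjusted p = 0.0147) were lower as well. Rxfp1, the relaxin receptor, was at 0 counts in all 3 quadriceps libraries and at 0.645, 0.288 and 0.120 RPKM in heart. Lepr (-0.24, adjusted p = 0.4) and Cfp, properdin (0.43, adjusted p = 0.0968), were not called, and Adgrb3 had too few counts to be tested. Endothelial genes moved beside Cdh13: all 9 were lower in quadriceps, among them Kdr (-2.13, adjusted p = 3.34e-07), Cdh5 (-1.56, adjusted p = 1.18e-06) and Tie1 (-1.49, adjusted p = 2.42e-06), and their part in the level of Cdh13 was not tested.

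Downstream of these receptors, 18 genes of adiponectin and leptin signalling were tested between the tissues, of which 6 were higher in quadriceps, 10 lower and 2 not called (3 higher and 13 lower with library totals, where Prkaa1 changed direction). The AMP-activated kinase subunits Prkag3 (log2 fold change 6.54, adjusted p = 9.25e-08) and Prkab2 (3.29, adjusted p = 3.07e-08) were the most enriched in quadriceps. Stat3, the transcription factor of the leptin receptor, was lower (-1.71, adjusted p = 3.77e-06). So was Cpt1b, the muscle carnitine palmitoyltransferase and the most abundant gene of the list by mean RPKM over both tissues (-0.68, adjusted p = 0.000234). Prkab2 was above Cpt1b in every quadriceps library, at 54.3, 57.6 and 54.6 RPKM against 43.9, 40.5 and 43.9. Prkag3 was above it in quadriceps libraries 2 and 3, at 49.9 and 49.0.

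Relatives of the 10 genes were tested in both comparisons. In TAC quadriceps, 1 of 8 relatives with a C1q domain or chain was higher and 4 were lower (none higher and 6 lower with library totals). C1qtnf4 rose by 2.10 on the log2 scale (SE 0.42, adjusted p = 0.00997), and was not called with library totals (1.28, adjusted p = 0.0574), with C1qc falling by 1.41 as given above and Emilin2, a matrix glycoprotein, by 1.19 (adjusted p = 0.0136). The others that were lower were C1qa and, named after its values were seen, the collagen gene Col8a1. In sham quadriceps against heart, 3 of 17 were higher and 9 lower, a share called of the same order as the 66.6% of all transcripts, among them C1qtnf6 (-3.41, adjusted p = 9.59e-05), the endothelial matrix gene Mmrn2 (-1.94, adjusted p = 7.65e-07) and Erfe, erythroferrone (2.67, adjusted p = 0.00756). Cbln1 was at 0 counts in all 3 quadriceps libraries. Of the other resistin genes, Retnlb was at 0 in the 6 sham libraries and Retnlg at no more than 0.0509 RPKM there, and neither was in the TAC table, so Retn and Retnla were the resistin family genes read here.

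Of 13 other adipokines, 4 rose in TAC quadriceps and 1, Igf1, fell (Igf1 and Nampt, the last of the 4, were named after their values were seen). Lcn2, lipocalin 2, rose by 4.05 on the log2 scale (SE 0.45, adjusted p = 0.00145), Gpx3, a secreted glutathione peroxidase, by 1.74 (SE 0.19, adjusted p = 0.00144) and Agt, angiotensinogen, by 1.20 (SE 0.37, adjusted p = 0.0385). Lpl, lipoprotein lipase and the most abundant of the list, was not called (0.29, adjusted p = 0.576). With library totals 2 were higher and 1 lower, and Agt (0.78, adjusted p = 0.124) and Nampt (0.38, adjusted p = 0.277) were not called. Between the tissues 9 of 20 were higher in quadriceps and 4 lower (4 and 9 with library totals, where Gpx3 changed direction), among them Apln (-3.13, adjusted p = 2.39e-05) and Agt (2.39, adjusted p = 8.62e-05). Lpl was lower (-1.80, adjusted p = 6.66e-06).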

How the data were processed

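RNA had been sequenced from 9 libraries of 3 groups, aligned by the authors with STAR to mm10 after Trim Galore, per the processing notes. The authors deposited raw counts per RefSeq transcript and RPKM values, which are those counts divided by transcript length and library total. One table holds 35745 transcripts of sham heart and sham quadriceps. The other holds a selected set of 587 genes of sham and TAC quadriceps, with 1 transcript each and the same 3 sham libraries. A column of it carries the number 4 where the labels run to 3, and it was used as a TAC library with no pairing. The number of single-library columns left unused is 1, its RPKM column, since the labels give that number to no library, so the TAC values with library totals and limma leave out this library by choice. The fold changes and p-values of the authors' own comparisons were not used.

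The main test was that of edgeR 4.0.16 under R 4.3.3 (quasi-likelihood, TMM, more than 5 counts in at least 2 libraries, Benjamini-Hochberg over all transcripts tested, called at an adjusted p under 0.05). The SE is the log2 fold change divided by the square root of F. Normalized counts were scaled by TMM to the mean effective size of the 6 libraries, and in the heart table to CPM. Library totals were recovered from counts, RPKM and length. The TAC table is a selected part of each library, of 689630 to 1326011 counts, so TMM there refers to the listed genes. On simulated counts with a log2 change of 2 in 200 genes, edgeR recovered 97.5% of them among 586 genes for the TAC table and 94% among 23893 for the heart table, with 4.88% and 8.29% of calls false.

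Alternatives were DESeq2 1.42.0, library totals, limma 3.58.1 on log2(RPKM + 0.5) and log2(RPKM + 0.1), other count filters, a replicate block, 1 transcript per gene name, the study's fold change criterion and leaving out each library. No libraries of a group were duplicates of each other (chi-square per degree of freedom at least 7.4). The genes and lists were chosen with earlier results of these data known. The genes named are the 10, every receptor and adaptor, the 3 called genes with the largest change and the most abundant gene of each other list, and the 3 genes most like each of the 7. A gene that this rule names is not reported here. The ratios to Adipoq, the order of the sham libraries and the genes named for them were chosen after their values were seen. Versions used for the tables and plots were Python 3.11.15, pandas 2.3.3, numpy 2.4.6, scipy 1.17.1 and matplotlib 3.10.9. Promoters, gene positions and exons were read from RefSeq on GRCm38.p6 and GENCODE vM21 on GRCm38, the build also called mm10.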

Additional observations from a re-analysis of the deposited data

How the results depend on the processing

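The calls of Adipoq, Cfd, Retn, Retnla, C1qtnf3 and C1qtnf7 between the tissues, and of C1qtnf3 in TAC, held their direction and side of the threshold under every alternative with a value for them, leaving out each library included. C1qtnf3 in TAC ran from -3.90 to -3.54 over the libraries left out and was -4.08 with library totals, -3.49 with the replicate block, and -0.92 and -2.21 with limma at pseudocounts of 0.5 and 0.1, which lower the change of low genes. C1qtnf3 in TAC, and several genes with few heart counts, had no value where at least 10 counts in every library were asked for. The fold of the most lowly counted genes is limited by depth.

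In TAC against sham quadriceps, 174 genes were called, 60 to 215 when each library was left out in turn (60, 83 and 72 without sham libraries 1, 2 and 3) and 88 with the libraries numbered 1 and 2 only, an alternative added after seeing the data. C1qtnf1 passed the threshold with DESeq2 (-1.09), library totals (-1.46) and limma (-1.03 with a pseudocount of 0.5 and -1.36 with 0.1), and ran from -1.58 to -0.81 over the libraries left out, called without TAC library 1 (adjusted p = 0.0208). It was -0.58 with the replicate block and -0.55 with the libraries numbered 1 and 2 only, and was not called there (adjusted p = 0.359 and 0.354). C1qtnf9 was -0.62 and called with limma at a pseudocount of 0.5, 0.12 with the libraries numbered 1 and 2 only, and -0.31 to 0.055 with each library left out. Adipoq ran from -0.74 to 0.65, with -1.16 and -1.24 with limma, and Retn from -0.16 to 1.45. Retnla ran from -2.50 to -1.38. Retn was -0.79 with library totals, -0.66 and -0.69 with limma and -0.53 with the libraries numbered 1 and 2 only. Cfd was -0.44, -0.33, -0.34 and -0.19 in the same order. The cause was not tested.

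Between the tissues, 16182 transcripts were called, and 9803 with 1 transcript per gene name, where fewer were tested. With the study's thresholds, a log2 fold change of 2 and a p under 0.05, 3796 were called in either direction. The p was taken here as unadjusted. The study itself kept only genes higher in quadriceps, so this count is wider than its criterion. C1qtnf1 passed the threshold with library totals (-1.15) and limma (-0.99 and -1.13) and ran from -0.63 to -0.19 over the libraries left out, called without sham quadriceps library 3 (adjusted p = 0.0154). C1qtnf2 did so with library totals (-1.19) and limma (-0.86 and -1.22) and ran from -0.85 to -0.20, called without sham quadriceps library 1 (adjusted p = 0.0258). C1qtnf9 was -0.33 with library totals and with limma at both pseudocounts, and 0.36 and not called with at least 10 counts in every library, with a range of 0.34 to 0.61 over the libraries left out and the call lost in 4 of 6. Lep was 0.94 and not called with limma at a pseudocount of 0.5, which lowers the change of low genes.

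Taken over all genes or transcripts tested, samples with the same number did not deviate together. The correlation of their deviations from the group means was 0.064, -0.036 and 0.047 between the tissues. In TAC and sham quadriceps it was 0.06, a single value, since only the numbers 1 and 2 are shared and their deviations mirror each other. The numbers were not taken as pairs. The block in TAC could be fitted on the libraries numbered 1 and 2 only, where 118 genes were called with the replicate block and 88 without it (174 with all 6 libraries and no block). There it gave Adipoq -1.38 (adjusted p = 0.0133), against -1.13 (adjusted p = 0.249) in the same libraries without it, and C1qtnf9 0.14, Retn -0.77 and Cfd -0.52. Between the tissues 15716 transcripts were called with the block against 16182. Adipoq, Cfd and Retnla were highest in library 1 of both sham tissues. There the block lowered the SE of Adipoq from 0.80 to 0.23 and of Cfd from 0.84 to 0.20. The SE was also lower with the block for Retnla (0.22), Retn (0.35), Lep (0.53), C1qtnf1 and C1qtnf7, and higher for C1qtnf2, C1qtnf3 and C1qtnf9. The block left the other calls of the 10 genes as they were.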

Other observations

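The heart libraries also differed in the low levels of fat hormones they held. Adipoq stood at 0.572, 0.276 and 0.172 RPKM in heart libraries 1, 2 and 3 and Cfd at 0.826, 0.313 and 0.132. Genes of atrial muscle ranked these libraries in the same order, with Myl7, the atrial light chain, at 96.4, 7.35 and 0.156 RPKM, Myl4 at 210.8, 22.6 and 3.15 and Sln, sarcolipin, at 43.8, 2.42 and 0.117. The ventricular and atrial gene Actc1 was nearly level, at 5101, 5074 and 5094. Retnla followed the same order, at 4.24, 3.12 and 2.14 RPKM, while Retn (0.0939, 0.227 and 0.105), Lep (0.0332, 0.0401 and 0) and C1qtnf3 (0.0426, 0.0411 and 0.0715) did not. Nor did C1qtnf1, C1qtnf2, C1qtnf7 and C1qtnf9. The atrial genes were named after their values were seen, and the share of all transcripts with this order in heart was not counted. These counts are low, and the part of tissue dissection in them was not tested.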
